A study of Schizosaccharomyces pombe with 4 samples.

Results

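In 65 protein-coding genes of the fission yeast Schizosaccharomyces pombe, the RNA of the antisense strand outweighed the messenger strand in spt6-1 cells, while the messenger strand dominated in wild type (WT). The genes were chosen by their values in all 4 libraries. A member had at least 5 sense RPKM (reads scaled for gene length and library size) in both WT libraries, and its antisense to sense ratio, with 0.5 RPKM added to each value, was above 1 in both spt6-1 libraries and below 0.2 in both WT libraries. Of 5134 protein-coding genes in the deposited table, which lists 7023 features, 3786 lay within the WT limits of the rule and 65 of these met all of it, which is 1.72%. Since the ratios chose the genes, their sense and antisense values below are a description and carry no test.

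Strand-specific RNA-seq was available for 2 spt6-1 libraries and 2 WT libraries. Both strains are prototrophic. They were grown at 30 °C in rich medium and held at 37 °C for 2 h, and poly(A)+ RNA was sequenced, so antisense RNA without a poly(A) tail was not measured. The spt6-1 strain carries a mutant allele of spt6. Whether the replicates were separate cultures is not said, so a p-value reflects the spread between these libraries alone, which may be technical. The recovered sense reads numbered 39693042 and 16894607 in spt6-1 and 36520471 and 17093322 in WT. The members took 61930 and 33494 of them in spt6-1, against 120713 and 54368 in WT. Their antisense reads numbered 135038 and 67659 in spt6-1, against 7527 and 3299 in WT. The libraries are of whole cultures, so fewer cells with a transcript and less transcript per cell cannot be told apart.

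Spt6 travels with elongating RNA polymerase II and puts histones back on the DNA after the polymerase has passed. In yeasts, loss of its function is known to open promoter-like sequences inside genes, from which transcription can start on either strand. Antisense RNA of fission yeast is otherwise kept low by histone deacetylation and remodelling, by RNA decay and by transcription termination.

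The annotation already holds RNAs on the opposite strand of some members. In all, 25 annotated non-coding RNAs lay opposite 23 of the 65 members. Of these, 12 started past the 3′ end of the member and 11 started inside the span of its coding part. The stretches around 5 starts inside a coding exon show where on the gene the antisense RNA is placed by the annotation. Each is written 5′ to 3′ on the antisense strand, with 60 bases before the annotated start in lower case and the first 20 bases of the non-coding RNA in capitals, read from the reference genome (RefSeq build ASM294v3, whose coordinates matched the table's).
orc1, SPNCRNA.1529, chrII:2573150-2573229, minus strand: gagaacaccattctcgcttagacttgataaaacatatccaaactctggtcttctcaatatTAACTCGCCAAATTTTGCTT
SPBC19C2.10, SPNCRNA.1454, chrII:1696757-1696836, minus strand: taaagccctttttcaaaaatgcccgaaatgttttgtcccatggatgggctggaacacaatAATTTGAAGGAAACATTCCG
mit1, SPNCRNA.1401, chrII:983554-983633, minus strand: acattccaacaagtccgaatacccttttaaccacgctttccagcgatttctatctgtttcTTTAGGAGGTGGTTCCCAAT
prp16, SPNCRNA.1491, chrII:2167066-2167145, minus strand: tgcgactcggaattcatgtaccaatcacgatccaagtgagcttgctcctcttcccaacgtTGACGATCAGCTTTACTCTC
prp1, SPNCRNA.1539, chrII:2643236-2643315, minus strand: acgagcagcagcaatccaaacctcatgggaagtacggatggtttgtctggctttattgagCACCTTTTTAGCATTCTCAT

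None of these 5 stretches held TATAAA on either strand. Of the 9 starts whose stretch lay in a single coding exon, the one in rik1 did. In the wider window of 100 bases before the start, TATAAA stood on either strand before 11 of the 25 non-coding RNAs opposite members (44.0%) and before 18.2% of all 1551 annotated non-coding RNAs. A match in these letters is a description, not a binding site. The annotated starts need not be those of all antisense RNA of a gene. In spt6-1, SPNCRNA.1539 had 921 and 537 reads, beside 1796 and 1057 antisense reads of prp1. SPNCRNA.1491 had 1878 and 1025 reads, beside 2660 and 1512 antisense reads of prp16. Some antisense reads of both genes thus lay outside the RNA whose start is shown.

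**Figure D1:**
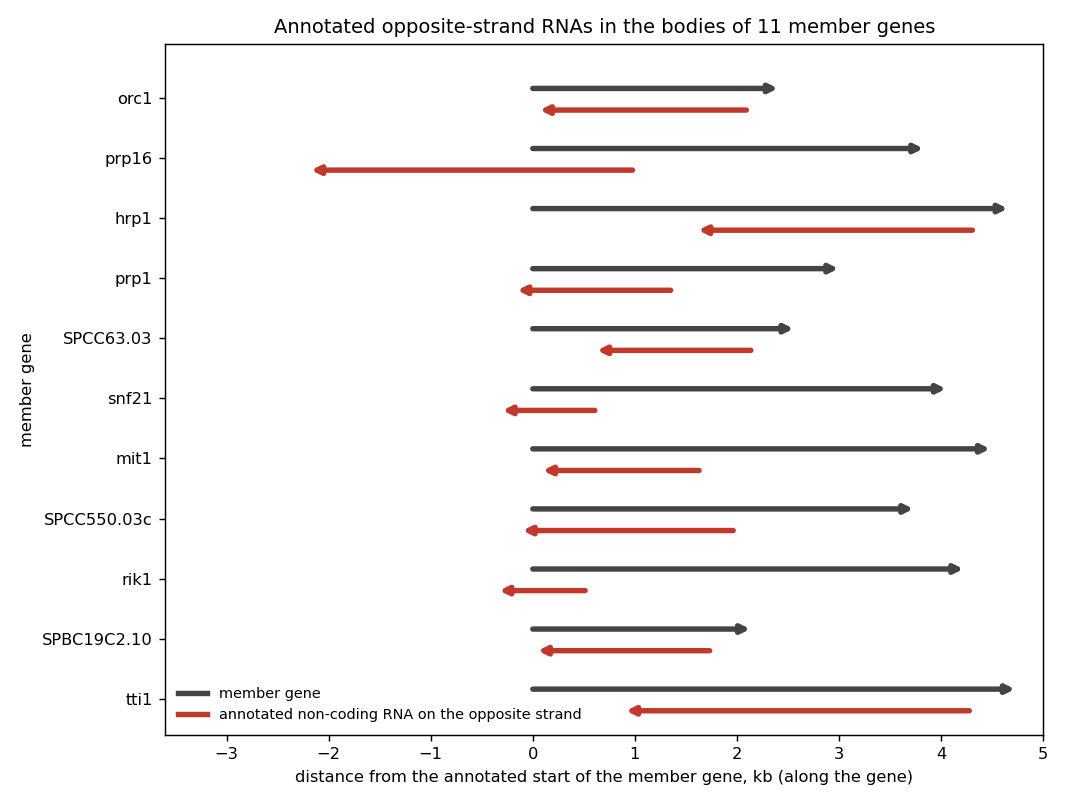
Positions of annotated non-coding RNAs (red, arrow in the direction of transcription) on 11 member genes (grey), in kb from the annotated start of the gene. The RNA starts in the coding part of 10 of them, and that of tti1 starts past its coding part but lies wholly inside the gene.

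For 6 members the annotated RNA lay wholly inside the gene, so its reads could be set against all antisense reads of the gene. At orc1 the RNA SPNCRNA.1529 covered 84.3% of the locus. It held 97.3% and 97.8% of the antisense reads in spt6-1, against 97.6% and 95.8% in WT. The antisense reads of SPBC19C2.10 fell almost wholly within SPNCRNA.1454, with 99.8% and 99.9% in spt6-1 and 98.2% and 98.7% in WT. In these genes the antisense reads lay in the annotated RNA in both strains, and in spt6-1 there were more of them.

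At mit1 the RNA SPNCRNA.1401 covers only 34.2% of the locus, at its 5′ end. It held 88.6% (95% Wilson interval 87.2 to 89.8) and 83.8% (81.6 to 85.8) of the antisense reads in spt6-1, against 58.0% (44.2 to 70.6) and 51.3% (36.2 to 66.1) in WT. At SPCC63.03 the RNA SPNCRNA.581 covers 59.0% of the locus and starts 418 bases inside its 3′ end. It held 69.5% (66.9 to 72.0) and 73.7% (70.2 to 76.9) of the antisense reads in spt6-1. In WT it held 36.6% (23.6 to 51.9) and 35.7% (16.3 to 61.2). In both genes the groups did not overlap, and the share inside the annotated RNA was higher in spt6-1. The same held by smaller margins for hrp1, tti1 and SPBC19C2.10, while the groups of orc1 overlapped. Such shares were not worked out for genes outside the rule, so they are not shown to be particular to the members. The WT shares rest on 50 and 39 antisense reads at mit1 and on 41 and 14 at SPCC63.03. For hrp1 the shares were 94.4% and 95.4% in spt6-1 and 90.9% and 77.8% in WT, over 57.8% of the locus. For tti1 they were 82.8% and 84.2% in spt6-1 and 81.1% and 80.5% in WT, over 71.2% of the locus. The intervals cover counting error only, and an exact permutation test of 2 against 2 libraries cannot give a p under 0.33.

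Taking all 65 genes, the median antisense level was 17.98 and 16.27 RPKM in spt6-1, against 0.919 and 0.875 RPKM in WT. The median sense level was 10.8 and 9.54 RPKM in spt6-1, against 17.4 and 16.7 RPKM in WT. The median ratio was 1.51 and 1.46 in spt6-1, against 0.0878 and 0.102 in WT. So the shift in ratio came with much more antisense RNA and with less sense RNA, and the antisense part was the larger on the log2(RPKM + 0.5) scale, with a median difference of 3.51 for antisense and −0.69 for sense. Among the 3721 other genes within the WT limits of the rule these medians were 1.73 and −0.02.

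**Figure D2:**
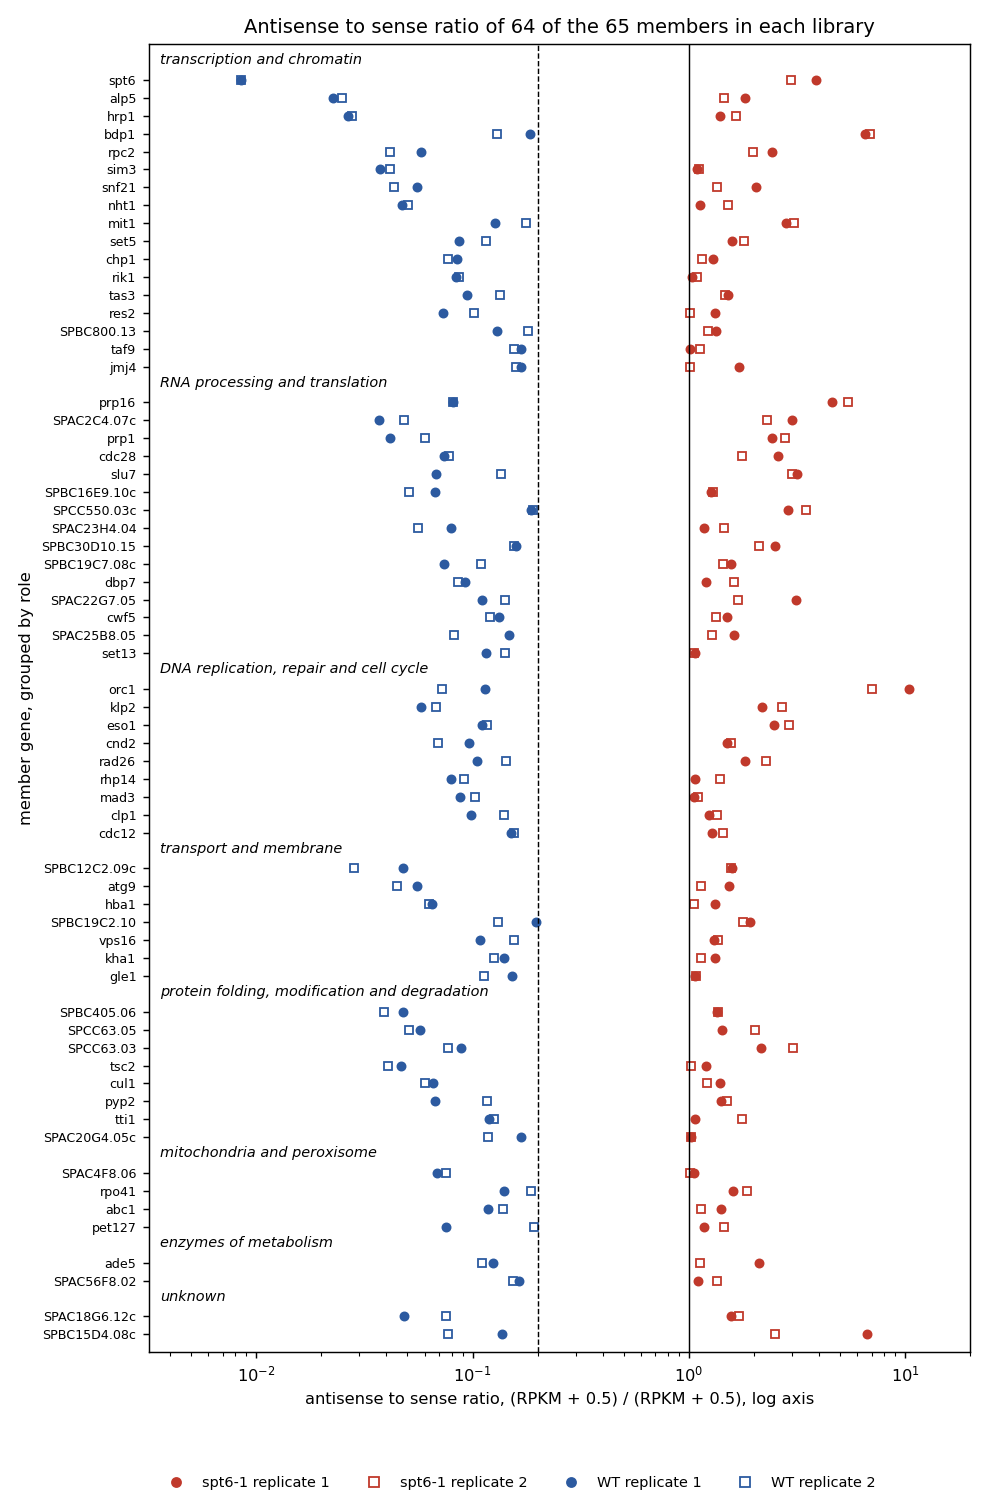
Antisense to sense ratio of 64 of the 65 members in the 4 libraries on a log axis, grouped by role, with the limits of the rule at 1 (solid line) and 0.2 (dashed line). The spt6-1 points reach 10.4 and 7.03 in orc1, and the lowest WT points are those of spt6.

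On the sense strand, 52 of the 65 members lay below both WT libraries in both spt6-1 libraries, 3 lay above both, and 10 overlapped. Of the 3786 genes within the WT limits of the rule, 33.6% lay below and 27.9% above. Antisense values lay above both WT libraries in all 65 members, as they did in 94.7% of the 3786 genes. The rule used these same values, so these counts describe how the ratio was reached. Under 3 other scalings of the libraries, 54 to 59 members lay below and 2 above.

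Summed over the strands, the RNA of the locus was more in spt6-1 in 57 members and less in 8. Among the 3721 other genes within the WT limits, the sum was more in 2258 and less in 1463. Where a coding gene overlaps on the opposite strand, the sum also holds reads of that gene. The median ratio of spt6-1 to WT in this sum was 1.64, beside 1.10 in the other genes. The 2 spt6-1 libraries had antisense levels within 1.5-fold of each other in 57 members and ratios within 1.5-fold in 59. The rule asked for a ratio above 1 in both libraries, so this likeness is in part set by the choice of genes. Replicate 1 was the higher in 50 members on the antisense strand and in 49 on the sense strand. The widest gap in ratio between the 2 libraries was in SPBC15D4.08c, an uncharacterized gene of 417 bases with 69 and 67 sense reads, whose ratio was 6.64 and 2.49. WT antisense values were less precise, since the lowest rest on 9 and 2 reads per gene.

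**Figure D3:**
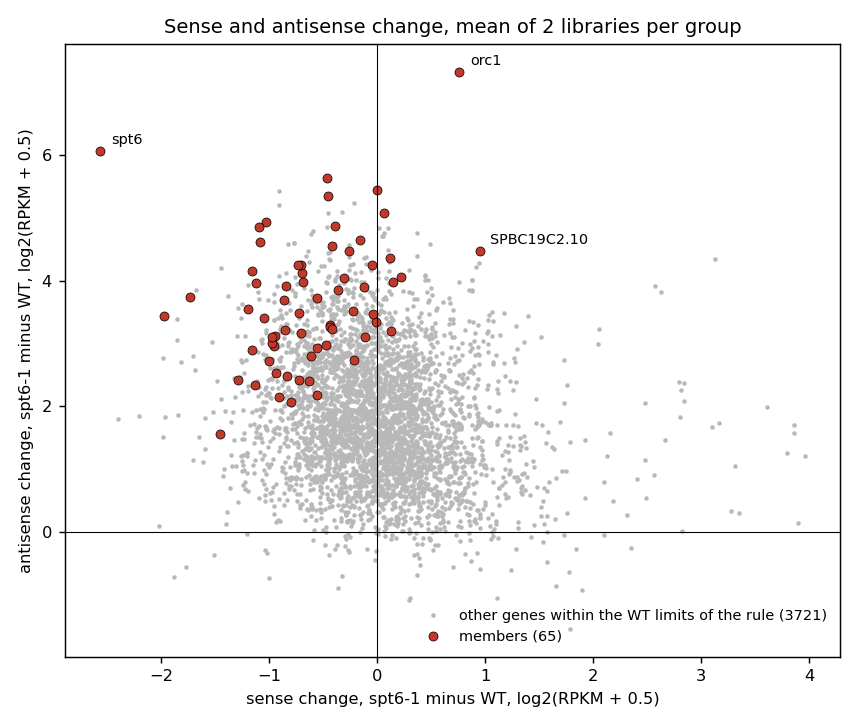
Sense change (x axis) against antisense change (y axis), spt6-1 minus WT on the log2(RPKM + 0.5) scale, for the 65 members (red) and the 3721 other genes within the WT limits of the rule (grey). Most members lie in the upper left, while orc1 and SPBC19C2.10 lie in the upper right with more RNA on both strands.

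By RefSeq product, 18 members belonged to transcription and chromatin, 15 to RNA processing and translation, 9 to DNA replication, repair and cell cycle, 8 to protein folding, modification and degradation, 7 to transport and membrane, 4 to mitochondria and peroxisome and 2 to metabolism, and 2 were of unknown function. The sense level lay below both WT libraries in 15 of the 18, 14 of the 15, 5 of the 9, 7 of the 8, 5 of the 7, 3 of the 4, 1 of the 2 and 2 of the 2.

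The member with the widest gap between its spt6-1 and WT ratios was spt6 itself (SPAC1F7.01c, minus strand of chromosome I, 4212476 to 4216888), which carries the mutant allele. Its sense level was 12.7 and 8.32 RPKM in spt6-1, against 65.5 and 61.6 RPKM in WT. Its antisense level was 50.5 and 25.5 RPKM in spt6-1, against 0.0631 and 0.0264 RPKM in WT, which rest on 10 and 2 reads. The antisense to sense ratio was thus 3.86 and 2.95 in spt6-1 and 0.00853 and 0.00848 in WT, the lowest WT ratios of any member. No annotated RNA lies opposite spt6.

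Several members code for subunits of chromatin remodelling complexes. The gene alp5, which codes for the actin-like protein Arp4 of Ino80, NuA4 and Swr1, was, with spt6, 1 of the 2 members with a mean above 50 sense RPKM in WT. Its sense level was 42.9 and 45.1 RPKM in spt6-1, against 71.6 and 51.8 RPKM in WT. Antisense RNA of alp5 stood at 78.5 and 65.8 RPKM in spt6-1, against 1.13 and 0.807 RPKM in WT. The remodeller and CENP-A chaperone gene hrp1 had 47.5 and 46.5 antisense RPKM in spt6-1, against 0.658 and 0.675 RPKM in WT. On the sense strand hrp1 had 33.88 and 28.04 RPKM in spt6-1, against 43.2 and 41.7 RPKM in WT. The sense strand held 0.714 times its WT level in alp5 and 0.729 times in hrp1, so most of the shift in ratio lay on the antisense strand.

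In snf21, for the ATPase of the RSC remodeller, sense levels were 18.6 and 15.1 RPKM in spt6-1 and 37.2 and 36.7 RPKM in WT, 0.456 times as much. Antisense RNA of snf21 stood at 38.5 and 20.5 RPKM in spt6-1, against 1.60 and 1.11 RPKM in WT. The Ino80 subunit gene nht1 had sense levels of 8.997 and 6.295 RPKM in spt6-1, against 18.6 and 17.2 RPKM in WT. In mit1, the remodeller gene of the SHREC silencing complex, sense levels overlapped, at 6.05 and 4.67 RPKM in spt6-1 and 5.88 and 5.19 RPKM in WT, and the whole of the switch lay in antisense levels of 17.98 and 15.28 RPKM in spt6-1, against 0.311 and 0.506 RPKM in WT.

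The members also held heterochromatin factors. Among these were chp1 and tas3 of the RITS complex, which brings RNA interference to chromatin, and rik1 of CLRC, the ubiquitin ligase complex that acts with the histone methyltransferase Clr4. In chp1 the antisense level was low in absolute terms, at 5.33 and 3.68 RPKM in spt6-1 and 0.202 and 0.0754 RPKM in WT. Its sense level was 4.02 and 3.15 RPKM in spt6-1, against 7.814 and 6.997 RPKM in WT. In rik1 the antisense level was 18.9 and 16.9 RPKM in spt6-1, against 1.35 and 1.60 RPKM in WT. Its ratio passed 1 only narrowly, at 1.03 and 1.09 in spt6-1. The gene SPCC11E10.09c on the other strand overlaps 87.8% of rik1. Within that overlap the antisense reads of rik1 cannot be told apart from the reads of SPCC11E10.09c.

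Other chromatin members were sim3, set5, SPBC800.13 and jmj4. The gene sim3 codes for a chaperone of the centromeric histone CENP-A and had antisense levels of 16.4 and 15.96 RPKM in spt6-1, against 0.127 and 0.205 RPKM in WT, and sense levels of 15.02 and 14.2 RPKM in spt6-1, against 16.2 and 16.5 RPKM in WT. SPBC800.13, for the centromere receptor Cnp20, was among the 4 members with the highest sense ratio to WT, at 1.10, but its sense groups overlapped. In set5, for a histone lysine methyltransferase, the sense level was 10.4 and 9.13 RPKM in spt6-1, against 19.9 and 19.3 RPKM in WT.

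The partners of these complexes did not all switch. The RITS gene ago1, named here after its values were seen, had ratios below 1 with antisense levels of 11.9 and 11.7 RPKM in spt6-1, against 0.225 and 0.137 RPKM in WT, and sense levels of 18.8 and 26.8 RPKM in spt6-1, against 25.4 and 28.6 RPKM in WT. The gene clr4, named likewise, had 6.19 and 6.14 antisense RPKM in spt6-1, against 1.5 and 1.07 RPKM in WT. Its ratios were 0.573 and 0.624 in spt6-1 and 0.2005 and 0.138 in WT, so it also missed the WT limit of the rule in replicate 1. The gene chp2, for a chromodomain protein of the HP1 family, stood just outside the rule.

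Genes of RNA polymerase III transcription also met the rule. In bdp1, a subunit of the initiation factor TFIIIB, sense levels overlapped at 7.95 and 5.57 RPKM in spt6-1 and 6.32 and 6.99 RPKM in WT. On the antisense strand bdp1 had 54.3 and 41.3 RPKM in spt6-1, against 0.754 and 0.476 RPKM in WT. That gave ratios of 6.48 and 6.89 in spt6-1, and the lower of these was second to that of orc1. The polymerase subunit gene rpc2 had sense levels of 7.68 and 6.17 RPKM in spt6-1, against 24.7 and 23.4 RPKM in WT, and antisense levels of 19.4 and 12.7 RPKM in spt6-1, against 0.961 and 0.498 RPKM in WT. The sense strand of rpc2 held 0.288 times its WT level, while that of bdp1 held 1.02 times. Gene-specific and general factors of RNA polymerase II were near the limit of the rule, with taf9 of SAGA and TFIID at ratios of 1.01 and 1.13 and res2 of the cell-cycle factor MBF at 1.31 and 1.01 in spt6-1.

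**Figure D4:**
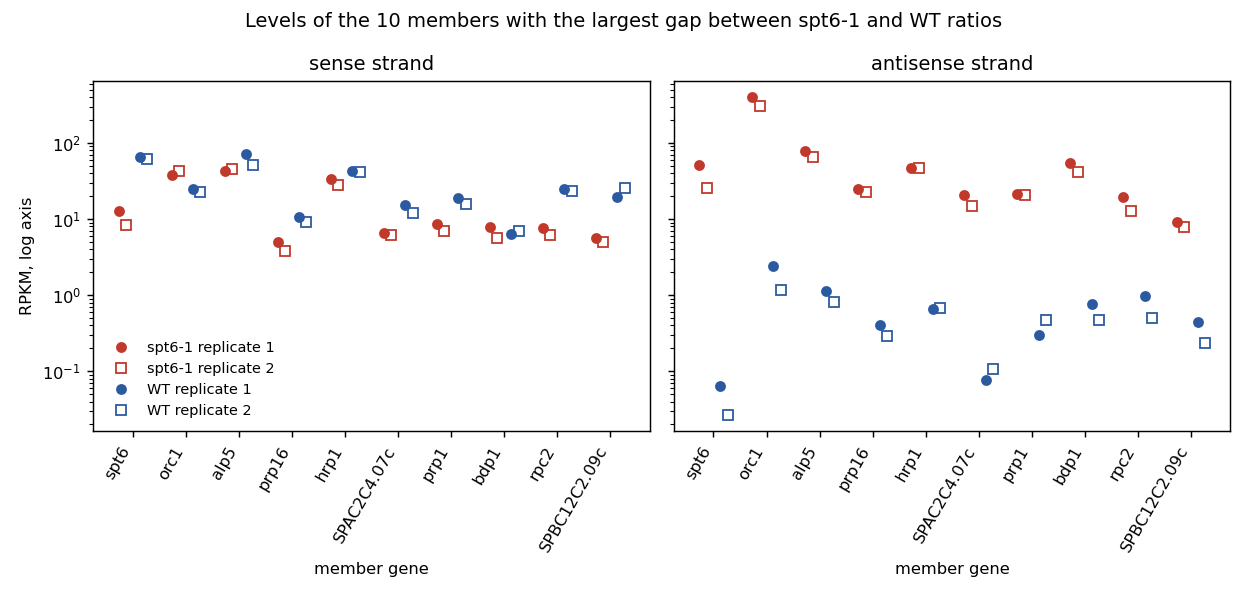
Sense (left) and antisense (right) RPKM on a log axis in each library for the 10 members with the widest gap between spt6-1 and WT ratios. The antisense points of spt6-1 lie above those of WT in all 10, and the sense points lie lower in 8, higher in orc1 and overlap in bdp1.

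In the RNA processing group, the pre-mRNA splicing helicase gene prp16 had the widest gap. Its sense level was 5.04 and 3.81 RPKM in spt6-1, against 10.7 and 9.24 RPKM in WT. Antisense RNA of prp16 stood at 24.8 and 22.9 RPKM in spt6-1, against 0.408 and 0.289 RPKM in WT. In prp1, a tri-snRNP subunit gene, sense levels were 8.57 and 7.02 RPKM in spt6-1 and 18.7 and 15.5 RPKM in WT. Its antisense levels were 21.4 and 20.4 RPKM in spt6-1 and 0.298 and 0.466 RPKM in WT. Both genes kept less than 0.5 times their WT sense level.

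Other splicing genes among the members were cdc28, slu7 and cwf5. The helicase gene cdc28 had 14.5 and 14.1 sense RPKM in spt6-1, against 25.15 and 22 RPKM in WT. The splicing factor gene slu7 was the one member of this role group whose sense levels overlapped, at 21.1 and 16.6 RPKM in spt6-1 and 21.4 and 15.0 RPKM in WT. On the antisense strand slu7 had 67.7 and 50.9 RPKM in spt6-1, against 0.979 and 1.59 RPKM in WT.

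Genes of RNA decay and of RNA modification were among the rest of the RNA processing and translation group. The gene SPAC2C4.07c, for the 3′ to 5′ exoribonuclease Dis32, had sense levels of 6.62 and 6.13 RPKM in spt6-1, against 15.1 and 12.1 RPKM in WT, and antisense levels of 20.7 and 14.8 RPKM in spt6-1, against 0.0767 and 0.107 RPKM in WT. SPCC550.03c, for the Ski complex helicase Ski2 of the cytoplasmic exosome, had antisense levels of 31.9 and 30.1 RPKM in spt6-1, against 2.87 and 2.89 RPKM in WT. SPAC22G7.05, of the krr family, had the highest antisense level of the group, at 84.8 and 52.6 RPKM in spt6-1 and 3.70 and 4.74 RPKM in WT. The tRNA pseudouridine synthase gene SPAC25B8.05 had sense levels of 10.95 and 11.4 RPKM in spt6-1, against 24.5 and 32.1 RPKM in WT, 0.395 times as much. A single non-coding RNA, SPNCRNA.678, spans the whole of SPAC22G7.05 and starts 111 bases past its 3′ end.

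The cell-cycle group held the strongest antisense RNA of all members. The gene orc1, for a subunit of the origin recognition complex that marks sites of DNA replication, had 402 and 306 antisense RPKM in spt6-1, against 2.40 and 1.16 RPKM in WT. Among 5134 protein-coding genes its antisense level ranked 10 and 11 in spt6-1, against 1258 and 1765 in WT. Its sense level was also higher, at 38.1 and 43.2 RPKM in spt6-1 and 25.03 and 22.47 RPKM in WT. The ratio of orc1 thus passed 1 through more antisense RNA, beside a sense strand that was higher as well, by 0.76 on the log2 scale, and the sense level stayed higher under each other scaling tried.

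The kinesin gene klp2 had 30.4 and 30.2 antisense RPKM in spt6-1, against 0.5098 and 0.5999 RPKM in WT. On the sense strand klp2 had 13.71 and 10.96 RPKM in spt6-1, against 16.9 and 15.6 RPKM in WT. In eso1, for the cohesin acetyltransferase and DNA polymerase eta, sense levels were 9.94 and 9.54 RPKM in spt6-1 and 16.6 and 19.7 RPKM in WT. Its antisense levels were 25.2 and 28.6 RPKM in spt6-1 and 1.40 and 1.85 RPKM in WT. The DNA repair gene rhp14 had sense levels of 21.0 and 18.2 RPKM in spt6-1, against 17.1 and 16.3 RPKM in WT, the smallest gap of the 3 members with more sense RNA, and under each other scaling the groups overlapped. The phosphatase gene clp1, of the Cdc14 family that acts at the exit from mitosis, had sense levels of 19.9 and 12.2 RPKM in spt6-1, against 34.8 and 26.6 RPKM in WT. Checkpoint genes rad26 and mad3 also met the rule, with ratios of 1.81 and 2.27 and of 1.06 and 1.11 in spt6-1. The end of rad26 overlaps SPAC9E9.09c, an aldehyde dehydrogenase gene on the other strand with 2854 and 2176 sense RPKM in spt6-1 and 788 and 920.5 RPKM in WT, so its antisense reads cannot be told apart from the reads of that gene.

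Members of transport and membrane held both the highest sense ratio to WT and 1 of the lowest. SPBC19C2.10, for a BAR adaptor protein of the kind that shapes membranes, had sense levels of 41.6 and 36.9 RPKM in spt6-1, against 20.8 and 19.3 RPKM in WT, 1.96 times as much. Antisense RNA of SPBC19C2.10 stood at 79.9 and 65.8 RPKM in spt6-1, against 3.688 and 2.103 RPKM in WT. SPBC12C2.09c, of the hemolysin-III family of membrane proteins, stood at the other end, with sense levels of 5.61 and 4.93 RPKM in spt6-1 and 19.4 and 25.4 RPKM in WT. Its antisense levels of 9.13 and 7.96 RPKM in spt6-1, against 0.449 and 0.234 RPKM in WT, can include reads of the overlapping gene dnm1. The sum over strands was 0.609 times that of WT, the lowest of all members.

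The autophagy gene atg9 had 25.6 and 19.2 antisense RPKM in spt6-1, against 0.599 and 0.459 RPKM in WT. It lies 37 bases past SPBC15D4.08c on the same strand, and both are members. A second such pair was SPCC550.03c and the splicing gene cwf5, 100 bases apart on the same strand. The nuclear transport gene hba1 and the vacuole tethering gene vps16 had ratios of 1.33 and 1.06 and of 1.30 and 1.36 in spt6-1.

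The group of protein folding, modification and degradation held tsc2, cul1, pyp2 and 5 others. The gene tsc2, for the GTPase-activating protein of the TOR regulator Rheb, had sense levels of 18.98 and 15.85 RPKM in spt6-1, against 27.0 and 29.6 RPKM in WT. Its antisense level was 22.9 and 16.3 RPKM in spt6-1, against 0.786 and 0.722 RPKM in WT. The cullin gene cul1, a scaffold of ubiquitin ligases, had 22.2 and 17.1 antisense RPKM in spt6-1, against 0.825 and 0.602 RPKM in WT. The phosphatase gene pyp2, which acts on stress-activated kinase, had overlapping sense levels, at 7.27 and 6.22 RPKM in spt6-1 and 9.84 and 5.51 RPKM in WT.

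Of the mitochondrial members, rpo41 codes for the RNA polymerase of the organelle, abc1 for a kinase family protein of ubiquinone synthesis and pet127 for an RNA metabolism protein. In rpo41 the sense level was 7.66 and 6.33 RPKM in spt6-1, against 11.69 and 10.16 RPKM in WT. In abc1 it was 9.69 and 8.15 RPKM in spt6-1, against 17.61 and 14.95 RPKM in WT, while the antisense level was 13.81 and 9.39 RPKM in spt6-1, against 1.63 and 1.64 RPKM in WT. All 4 mitochondrial members had ratios between 1.01 and 1.85 in spt6-1. The purine synthesis gene ade5 had 22.5 and 16.0 antisense RPKM in spt6-1, against 2.62 and 2.33 RPKM in WT.

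The limit at a ratio of 1 fell within a continuous range. The lower of the 2 spt6-1 ratios was 1.007 in jmj4, 1.008 in res2, 1.011 in SPAC4F8.06 and 1.013 in taf9, the 4 members nearest the limit. Just outside stood the myosin gene myo2 at 0.996, chp2 at 0.991, the cohesin gene pds5 at 0.988 and the splicing gene SPAC1486.03c at 0.972. Another 39 genes passed 1 in a single spt6-1 library, 21 in replicate 1 and 18 in replicate 2. Of the 3786 genes, 2852 had a lower spt6-1 ratio under 0.2, and the median was 0.0732. Only 14 passed 2 in both spt6-1 libraries and only orc1, bdp1 and prp16 passed 4.

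Some members overlap a protein-coding gene on the other strand, whose reads are then counted as antisense of the member. This held for 14 of the 65, by 40 to 3703 bases. The overlap took in 100% of jmj4 (with str2), 95.3% of SPAC25B8.05 (with SPAC25B8.06c), 87.8% of rik1 (with SPCC11E10.09c) and 38.8% of rpo41 (with kei1). Within each overlap the antisense RNA of the member and the sense RNA of its neighbour cannot be told apart. If the reads of the neighbour were spread evenly along it, the overlap would bring 69.9% to 187% of the antisense reads counted for these 4 members in spt6-1. For rad26 the same sum gave 1132% and 757% over an overlap of 90 bases, for SPBC12C2.09c (with dnm1, 164 bases) 53.3% and 56.4%, for prp1 (with ofd1) 19.4% and 25.9%, and for the other 7 overlapping members at most 9.99%. In WT the same sum gave 56.6% to 261% for these 7 members. Values over 100% show that the spread was not even, so the sum is only a rough guide. The sense level of SPCC11E10.09c was 15.1 and 14.0 RPKM in spt6-1 and 3.705 and 4.081 RPKM in WT, and that of str2 was 17.9 and 13.7 RPKM in spt6-1 and 8.51 and 11.1 RPKM in WT. Among the 51 members with no such overlap, 41 lay below both WT libraries on the sense strand, and the median antisense difference was 3.51, as over all members. No member had a near-identical copy elsewhere in the genome (at least 90% identity over 100 bases).

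**Figure D5:**
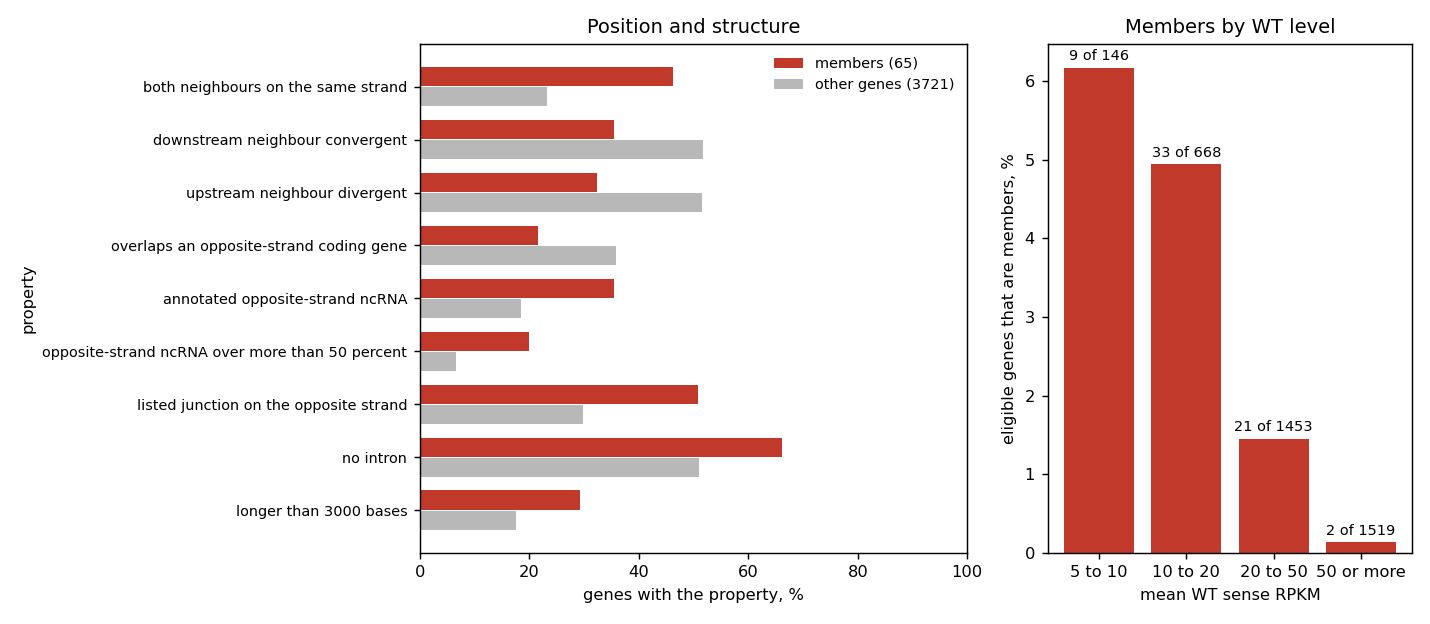
Left, share of the 65 members (red) and of the 3721 other genes within the WT limits of the rule (grey) with each property of position or structure. Right, share of the genes within the WT limits that are members, by mean WT sense RPKM, with the counts above the bars.

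The members were mostly genes of low to middling WT level. They made up 6.16% of eligible genes at 5 to 10 mean WT sense RPKM (9 of 146), 4.94% at 10 to 20 (33 of 668), 1.45% at 20 to 50 (21 of 1453) and 0.132% at 50 or more (2 of 1519). By construction, a lower sense level takes less antisense RNA to pass a ratio of 1. The 2 above 50 RPKM were alp5 and spt6.

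The rule did not use the strand of the neighbours and set no limit on length. Introns and overlapping genes bear on its ratio, since sense was scaled by exon length and antisense by locus length, and reads of an overlapping gene count as antisense. The values that follow are given without a test. Both neighbouring genes lay on the member's own strand in 46.2% of members and in 23.3% of the other genes. The downstream neighbour was convergent in 35.4% of members and 51.7% of the others, and the upstream neighbour divergent in 32.3% and 51.6%. The median locus was 2279 bases in members and 1851 bases in the others, and 66.2% and 51.1% had no intron. Within the length class of 1000 to 2000 bases, 52.2% of members and 22.3% of the others had both neighbours on their own strand, and above 3000 bases 42.1% and 24.1% did. An annotated non-coding RNA lay opposite 35.4% of members and 18.4% of the others, and a coding gene overlapped on the opposite strand in 21.5% and 35.9%.

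A deposited list of splice junctions, for which no source used here gives the libraries of origin, held a junction on the opposite strand inside 50.8% of members and 29.9% of the others. Among genes above 3000 bases these shares were 79.0% and 55.3%. The median GC content was 37.0% and 36.9%. The members lay on chromosomes I, II and III in 27, 24 and 14 cases, and 2 lay within 100000 bases of a chromosome end.

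Promoters were read from 250 bases before to 50 bases after the annotated start on both strands. TATAAA was found in 61.5% of members and 50.1% of the others, the forkhead motif GTAAACA in 6.15% and 16.3%, and the heat shock element GAANNTTC in 7.69% and 11.2%. The HomolD motif CAGTCACA of ribosomal protein genes was in none of the member promoters and in 3.22% of the others. The MCB motif ACGCGT was in 3.08% and 2.88%, ATGACGT in 1.54% and 1.69%, and a run of 10 adenines in 4.62% and 7.2%.

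Product names were also searched for words chosen after the members were seen. The roles came from the same products, so the words give no separate support for them. The contrasts below follow in part from this choice of words. Words for heterochromatin, CENP-A, remodelling or histone modification stood in the products of 13 of the 65 members and 1.88% of the others. Helicase or ATPase stood in 10.8% and 2.96%, splicing in 7.69% and 1.69%, and tRNA modification in 4.62% and 0.376%. No member was a cytosolic ribosomal protein gene, against 3.49% of the others. Transcripts of ribosomal protein genes are abundant, and the shares were not adjusted for the WT level.

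The rule did not use the sense reads of neighbours that do not overlap a member, and these were tested in the fit over all features. By limma on log2(RPKM + 0.5) with Benjamini-Hochberg adjustment, 21.8% of 6547 features were higher and 6.67% lower in spt6-1 on the sense strand, and of the 5060 coding genes among them 12.1% were higher and 8.2% lower. For 10 convergent downstream neighbours that did not overlap the member, 1 was higher and 1 lower. The higher one was SPAC23H4.05c, an uncharacterized gene 1048 bases from SPAC23H4.04, at 4.39 and 4.89 RPKM in spt6-1 and 1.04 and 0.335 RPKM in WT (log2 change 2.18 ± 0.35 SE, limma adjusted p = 0.00495). The call ended under quantile normalization (log2 change 0.97, adjusted p = 0.0587). The lower one was ura1, which starts pyrimidine synthesis, 384 bases from SPAC22G7.05, at 91.1 and 70.0 RPKM in spt6-1 and 193 and 305 RPKM in WT (log2 change −1.60 ± 0.31 SE, limma adjusted p = 0.0106). Without spt6-1 replicate 2 its limma adjusted p was 0.0504.

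Of 20 divergent upstream neighbours, none was higher by limma at an adjusted p under 0.05 (3 at an unadjusted p under 0.05, and none by voom on the recovered reads), and 2 were lower. These were SPAC2C4.08, an uncharacterized gene beside SPAC2C4.07c, at 2.59 and 2.61 RPKM in spt6-1 and 6.47 and 6.41 RPKM in WT (log2 change −1.17 ± 0.20 SE, limma adjusted p = 0.0065), and SPCC622.14 beside tti1 (log2 change −0.71 ± 0.21 SE, limma adjusted p = 0.0438). The call of SPCC622.14 ended without any 1 of the 4 libraries, where limma adjusted p was 0.0583 to 0.175. In SPAC2C4.08 the antisense level was 17.5 and 19.4 RPKM in spt6-1, against 3.37 and 4.69 RPKM in WT, so the antisense strand led there as well, but its WT ratio was above the limit of the rule.

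Neighbours on the same strand were the most frequent kind, and 70 were tested on the sense strand. Of these 6 were higher and 7 lower, beside the 12.1% and 8.2% of coding genes, and these counts were 1 to 5 and 1 to 3 when 1 library was left out and 3 and 16 with quantile normalization. On the antisense strand 62 of 67 were higher and none lower by limma at an adjusted p or an unadjusted p under 0.05, where 81.9% of the 4728 coding genes tested were higher and 1.65% lower. With quantile normalization 21 were higher, beside 1316 of the 4728 coding genes, and with median centring 14, beside 961 of them. Neighbours lower on the antisense strand were not counted under these scalings. One RNA can run opposite a member and its neighbour and give antisense reads to both, so these values are not independent of the rule. The DNA methyltransferase homologue gene pmt1, named after its values were seen, lies 124 bases past cdc28, and SPNCRNA.1451 runs opposite both genes. It had 14.3 and 16.3 antisense RPKM in spt6-1, against 2.97 and 3.99 RPKM in WT, and 3.01 and 3.90 sense RPKM in spt6-1, against 8.04 and 9.12 RPKM in WT (sense log2 change −1.21 ± 0.21 SE, limma adjusted p = 0.00722).

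A list of 53 genes known for holding down cryptic or antisense RNA in yeasts was looked at for the same shift. Its 3 members were spt6, hrp1 and rik1. Of the 50 others, 44 were higher on the antisense strand by limma and none lower (1 at an unadjusted p under 0.05), with a median log2 change of 2.07, beside 1.58 over all coding genes tested. In the 3 groups of the list this was 14 of 16 elongation and histone methylation factors, 16 of 18 deacetylases, remodellers and histone exchange factors and 14 of 16 factors of RNA decay, termination and RNAi. Over all coding genes tested the share was 81.9%.

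On the sense strand none of the 50 was higher by limma (2 at an unadjusted p under 0.05, none by voom) and 5 were lower, with a median log2 change of −0.22 beside 0.03 over all coding genes tested, of which 12.1% were higher and 8.2% lower. The termination factor gene rhn1 had 9.58 and 10.6 RPKM in spt6-1, against 18.3 and 19.8 RPKM in WT (log2 change −0.88 ± 0.18 SE, limma adjusted p = 0.012). Its antisense level of 9.66 and 10.3 RPKM in spt6-1, against 0.462 and 0.526 RPKM in WT, gave ratios of 1.01 and 0.969 in spt6-1, so it passed 1 in a single library. The histone deacetylase gene clr6 had 31.4 and 37.4 RPKM in spt6-1, against 68.2 and 56.8 RPKM in WT (log2 change −0.85 ± 0.22 SE, limma adjusted p = 0.0284). The Paf1 complex gene cdc73 had 11.99 and 13.89 RPKM in spt6-1, against 23.6 and 19.8 RPKM in WT (log2 change −0.72 ± 0.19 SE, limma adjusted p = 0.0328). The exosome nuclease gene dis3 had 35.98 and 29.2 RPKM in spt6-1, against 69.8 and 52.4 RPKM in WT (log2 change −0.89 ± 0.24 SE, limma adjusted p = 0.0331). The fifth was mtr4, for the RNA helicase of the TRAMP complex, at 22.5 and 19.3 RPKM in spt6-1 and 37.98 and 32.6 RPKM in WT (log2 change −0.74 ± 0.20 SE, limma adjusted p = 0.0332). When 1 library was left out, 0 to 2 of the 50 factors were lower.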

How the data were processed

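The members and the gene lists were chosen with earlier results of these data known. The authors deposited RPKM per feature and strand, and a list of splice junctions, which holds positions (other values, per the file headers) and no levels. The aligner was TopHat and the build ASM294v2, per the submitters' processing notes. No source used here names the counter, the annotation or the treatment of multiply mapped reads. The length behind a sense value is that of the exons, and behind an antisense value that of the whole locus. With the lengths and denominators worked out from the values, 100% of values were whole reads within 0.01 read. The denominator of spt6-1 replicate 1 was 27994342, beside 39693042 recovered sense reads, which scales its levels on both strands and, through the 0.5 RPKM added, moves the ratios of low genes. RPKM of 1 read per kilobase was 0.0357 and 0.0579 in spt6-1 and 0.0278 and 0.0581 in WT, which sets the precision of low values.

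The sense fit took features reaching 1 RPKM in 2 or more libraries and the antisense fit coding genes reaching 0.5 RPKM in 2 or more. Values were tested as log2(RPKM + 0.5) with limma 3.58.1 in R 4.3.3 (eBayes with a trend, two-sided, Benjamini-Hochberg, threshold 0.05 on the adjusted p). The fit in its main setting was tested on simulated reads with known changes. These reads held no general shift such as that of the antisense strand here, and the test did not cover the other steps. Alternatives were another pseudocount, no filter, median centring, quantile normalization, no trend, voom on the recovered reads, the replicate number as a block, and each library left out. Products are RefSeq's, matched for all 65 members and 5102 coding genes. Coordinates of the reference matched the table's, with ATG at the start of 5121 of 5123 nuclear coding sequences. Copies were searched with BLAST 2.17.0.

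Named genes are spt6, the 10 members with the widest gap, the 8 with the highest WT sense level, the 4 on each side of the limit, members of the list, up to 3 named members per role, the 4 with the highest sense ratio to WT, and the neighbours and list genes past the threshold with the smallest p, up to 4 each. Other names were chosen after their values were seen, and not every named member is described. One member is not reported here by name and is left out of the figures that name genes.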

Additional observations from a re-analysis of the deposited data

How the results depend on the processing

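The count of 65 members was 56 to 70 with other pseudocounts of the ratio, other WT minimums and antisense per kilobase of exon, and 29 with a WT limit of 0.1 and 14 with an spt6-1 limit of 2. Leaving out 1 library gave 69 to 86. Sense features higher and lower numbered 1426 and 437, against 801 and 998 with quantile normalization, 256 lower without the filter, and 914 to 1163 and 171 to 232 with 1 library left out, the lowest of each without spt6-1 replicate 1. Antisense coding genes higher and lower numbered 3872 and 78, against 1316 and 1494 with quantile normalization and 961 and 2406 with median centring, since both remove the general antisense shift (median 1.58, against −0.08 and −0.51), and 3592 to 3708 and 41 to 67 with 1 library left out. On the sense strand the same scalings moved the coding median to −0.19 and −0.09, from 0.03. Convergent neighbours higher and lower were 0 and 3 with quantile normalization, 2 lower with median centring, and 1 to 2 and 0 to 1 with 1 library left out. Factors lower on the sense strand numbered 9 with quantile normalization, 1 without the filter and 0 to 2 with 1 library left out, while 0 were higher in each of these. Factors higher on the antisense strand numbered 23 with quantile normalization, 19 with median centring and 43 to 45 with 1 library left out. The labels do not say whether replicate numbers pair libraries. Deviations of same-numbered libraries correlated at 0.323 (sense) and 0.202 (antisense) over features in 2 pairs. With the replicate block 1628 and 582 features were higher and lower on the sense strand, 2 convergent neighbours were lower and 1 factor higher. The 10 non-members tested by name kept their direction in all 120 alternatives and lost the call in 29. The cause of the other moves was not tested. With 2 libraries per group the depth of WT antisense, 2 to 9 reads at the lowest member, limits those values.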
